A study of Rattus norvegicus with 102 samples.

Results

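The hemoglobin genes read here are 6 symbols fixed by name, Hbb, Hbb-b1, Hba1, Hba2, Hba-a2 and Alas2, whose rows were followed through dissected rat hippocampus. A row was found for 5 of the 6 symbols in each of 3 tables, among 26284 genes in an Illumina table, 26341 in an Ion Proton table and 26284 in a further table named WT, and Hba-a2 had no row under that symbol in any of them. Each table held 3 libraries a rat, from CA1, from CA3 and from the dentate gyrus (DG), of 34 male Fisher 344 rats, with 10 young rats (suffix Y, 5 to 6 months) and 24 aged rats (17 to 22 months). A water maze divided the aged rats into 12 unimpaired (suffix OG) and 12 impaired (suffix OB) animals. The labels name no genetic change and no drug in any group. The rats were decapitated under isoflurane, the brain was rinsed in saline, and the sources used here describe no perfusion of the vessels before the hippocampus was taken out.

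Hemoglobin carries oxygen in red blood cells as a tetramer of α chains and β chains, each holding a heme group. The α and β chains come from gene clusters on different chromosomes, and each cluster holds several adult copies of nearly the same sequence. In adult mammals these genes are transcribed in red cell precursors of the bone marrow, and young red cells (reticulocytes) carry the mRNA into the blood for a short time after they lose their nucleus. Alas2 encodes the erythroid form of 5-aminolevulinate synthase, which makes the first intermediate of heme, whereas Alas1 serves the same step in other cells. Low globin expression has been described in some neurons and glia, so hemoglobin mRNA in a piece of brain can come from blood in its vessels or from the tissue. In such bulk tissue, fewer cells of a type and less RNA per cell cannot be told apart.

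The β chain rows were Hbb (ENSRNOG00000049424, chromosome 1) and Hbb-b1 (ENSRNOG00000047098, chromosome 1). The α chain rows were Hba1 (ENSRNOG00000029886, chromosome 10) and Hba2 (ENSRNOG00000047321, chromosome 10), and Alas2 (ENSRNOG00000000167) lay on chromosome X. Copies within a cluster share long stretches of sequence, so how reads were divided between Hba1 and Hba2, and between Hbb and Hbb-b1, depended on the authors' counting. Current RefSeq annotation matched 4 of the 6 symbols directly, and listed Hba1 as a synonym of both Hba-a1 and Hba-a2, and Hba2 as a synonym of Hba-a2. Because the results turn on genes of both clusters that moved together, the 150 bases before the start of the 3 globin genes with a RefSeq entry are shown, from the GRCr8 build and not the rn5 build of the reads, all on the minus strand. They lie at chr1:167663722-167663871 for Hbb, chr1:167643521-167643670 for Hbb-b1 and chr10:15829139-15829288 for Hba-a2. Each is written 5′ to 3′ along the gene and ends at the base before its start. Capitals mark, on either strand, the motifs named in the sentence after the sequences.
Hbb: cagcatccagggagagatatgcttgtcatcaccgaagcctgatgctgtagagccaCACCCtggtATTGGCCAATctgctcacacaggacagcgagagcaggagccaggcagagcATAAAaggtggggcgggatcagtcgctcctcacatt
Hbb-b1: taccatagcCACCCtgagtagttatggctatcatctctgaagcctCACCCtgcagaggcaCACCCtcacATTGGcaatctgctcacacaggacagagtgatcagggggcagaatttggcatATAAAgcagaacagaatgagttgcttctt
Hba-a2: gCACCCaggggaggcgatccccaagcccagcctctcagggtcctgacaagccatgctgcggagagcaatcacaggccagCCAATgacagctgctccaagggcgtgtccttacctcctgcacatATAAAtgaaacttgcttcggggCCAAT
The motif CCAAT is the core of the box known from globin promoters, CACCC the core of the element read by Klf1, and ATAAA a part of the TATA-type box. Each of the 3 windows held all of these motifs. The ATAAA run began 36 bases before the start in Hbb, 29 in Hbb-b1 and 27 in Hba-a2. A CCAAT core in one orientation or the other lay 81 bases before the start in both β genes and 71 in Hba-a2, which held another copy beginning 5 bases before its start. In Hbb a copy on each strand stood side by side, beginning 86 and 81 bases before the start. Hbb-b1 held 3 copies of CACCC, and the other 2 windows held 1 each. GATAA, the core read by Gata1, was in none of the 3 windows. Of 33469 RefSeq windows of the same length, 23.5% held CCAAT, 35.2% CACCC, 25.7% ATAAA and 14.2% GATAA. These are matches of letters only.

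All 5 rows had reads in every Illumina library and passed the filter of a mean of 10 in each table. Values are read counts divided by a size factor of the library, called normalized reads here, from libraries of 3246922 to 42750899 recovered reads (Illumina), 4470473 to 21434160 (Ion Proton) and 3539310 to 20625745 (WT). In the Illumina table Hbb ranged from 254 to 3209 normalized reads with a median of 706, and Hba1 from 280.0 to 3463 with a median of 715. Hba2 averaged 295, Hbb-b1 35.7 and Alas2 19.5 normalized reads. The 5 genes together took 0.0171% of the reads of an Illumina library on average, between 0.00506% and 0.0609%. The α rows took 56.4% ± 3.30 (SD over the Illumina libraries of 34 rats) of the globin reads. The ratio of α to β chain reads varied less between libraries than the level of either chain. The log2 ratio of Hba1 to Hbb was 0.04 ± 0.21 (SD over the same libraries), whereas the SD of log2 Hbb itself was 0.90.

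Pearson's r of Hbb over all Illumina libraries, on the log2(value + 1) scale, was 0.97 with Hba1, 0.97 with Hba2, 0.95 with Hbb-b1 and 0.83 with Alas2. These points share libraries, rats and the size factor, and r is given as a description. The gene with the highest mean of the 5, Hba1, was set against 13906 genes detected in both poly-A tables, after removal of the mean of each subfield and suffix. By the smaller r of the 2 tables, the 6 closest genes were Hba2 (0.97), LOC689064 (0.89), LOC100134871 (0.88), Hbb (0.87), Hbb-b1 (0.79) and Alas2 (0.75). RefSeq names LOC689064 as Hbb-bs, another adult β chain gene of the same cluster. Next came Acer2, an alkaline ceramidase (0.71), Glul, the glutamine synthetase of astrocytes (0.69), Mxd4, a partner of Max (0.67), and Plekho2 (0.66). The median over all genes was -0.13, and 62 genes were over 0.5. The range of rat numbers, described below, was not removed, and its part in these r values was not tested. The plot of 4 genes against Hbb shows the joint movement, and 1 library away from it.

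**Figure D1:**
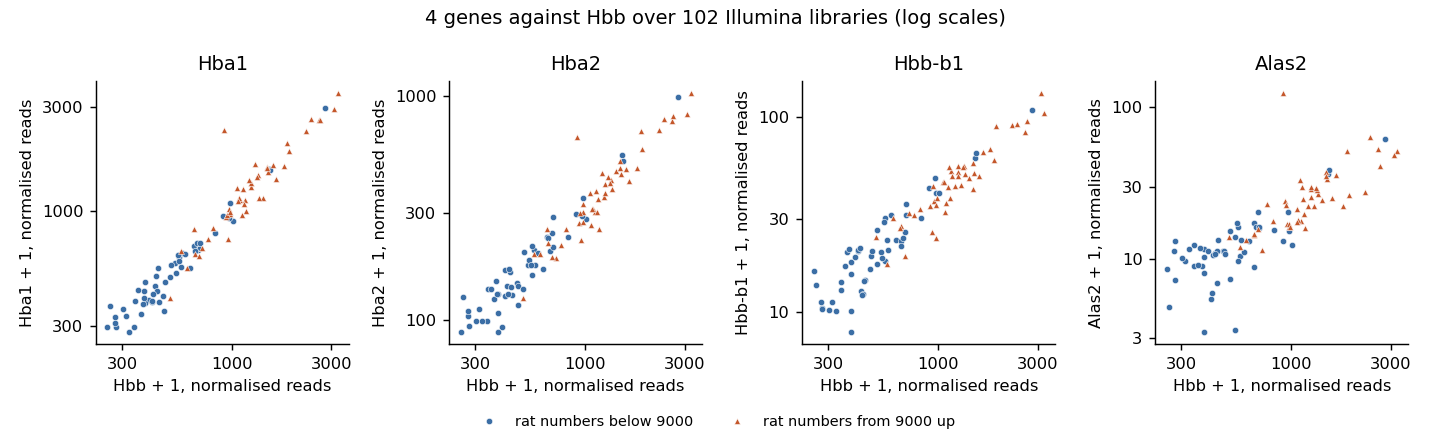
Normalized reads plus 1 of Hba1, Hba2, Hbb-b1 and Alas2 (y axes, log scale) against Hbb (x axis, log scale), 1 point for each Illumina library, by rat number range (circles below 9000, triangles from 9000 up). Points run along a diagonal in each panel, and 1 CA3 library with an Hba1 of 2357 and an Alas2 of 123 lies above it.

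The library off the diagonal was the CA3 piece of R9875, an impaired rat. It held 917 normalized reads of Hbb, 2357 of Hba1, 654 of Hba2 and 123 of Alas2, and its α share was 76.0%. Its α chains and Alas2 were thus among the highest of the table while both β chains were near the middle. In the WT table the same piece had 958 normalized reads of Hbb, 915 of Hba1 and 25.6 of Alas2, with an α share of 58.0%, and in the Ion Proton table the α share was 55.7%. The departure was present in 1 of the 3 tables. This was the shallowest Illumina library, at 3246922 reads, and its 5 members rested on 962 reads. This library was also among those whose neuronal markers lay nearer to another subfield, as given below.

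Red cell genes other than the members were sparse, and the list was read only by its counts. Of 20 erythroid genes, 19 had a row and 7 passed the filter, among them Ank1, Bpgm, Sptb, Tal1, Gypc and Klf1. The highest were Sptb (mean 2612 normalized reads), Bpgm (1105) and Ank1 (584), which other tissues also express. The defining genes lay lower. Slc4a1, the anion exchanger band 3 of the red cell membrane, averaged 3.83 normalized reads. Ahsp, the chaperone of free α chains, averaged 1.21, and Rhag, a membrane protein of the Rh complex, averaged 0.189. Gata1, the master regulator of red cell precursors, was at 0 in every Illumina library. Embryonic globins were equally low, since Hbe1, Hbe2 and Hbg1 were at 0 in every one of them and Hbz averaged 0.0392. Globins known from the nervous system were read at a mean of 516 for Cygb (cytoglobin) and 64.5 for Ngb (neuroglobin), and the median r of those 2 genes with Hba1 was 0.03 in the Illumina table. Endothelial genes had a median r of 0.49 with Hba1 in the Illumina table and 0.28 in the Ion Proton table, and mural cell genes 0.34 and 0.31, beside -0.00 and -0.04 over all genes. The choroid plexus list stood at 0.43 and 0.24, the leptomeningeal at 0.31 and 0.17 and the white blood cell list (3 genes) at 0.38 and 0.04. For the 7 erythroid genes the median was 0.20 and -0.10. In these r values too the range of rat numbers was not removed.

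The neuronal identity of the pieces limits what a subfield label means here. By markers of CA1 pyramidal, CA3 pyramidal and dentate granule cells, 10 libraries of 8 rats lay nearer to another subfield than their own in both poly-A tables, 1 labelled CA1, 6 CA3 and 3 DG. In the rat R9781 the CA3 library lay nearer to DG and the DG library nearer to CA3. Of the 10, 9 came from rats numbered from 9000 up and 1 from a rat numbered below 9000. The rat numbers in the titles fall into 2 ranges, below 9000 (18 rats, of which 5 young, 6 unimpaired and 7 impaired) and from 9000 up (16 rats, of which 5 young, 6 unimpaired and 5 impaired). The study tested rats at 2 sites, and the labels do not say which rat came from which site. The young and aged counts of both ranges are the same as those the study's methods give for its sites, so a site, a supplier and a number range cannot be told apart here. Depth was alike in both ranges, with an Illumina mean of 16520954 reads below 9000 and 15072643 from 9000 up.

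Hemoglobin reads differed far more from rat to rat than from subfield to subfield. In the Illumina table, differences between rats held 83.2% of the sum of squares of log2 Hbb, subfields 6.71%, and the remainder 10.1%. The number range accounted for 47.7% and the suffix for 2.31% of the same total, both within the share of the rats. The shares between rats were 82.9% for Hba1, 81.7% for Hba2, 75.7% for Hbb-b1 and 70.9% for Alas2. In the Ion Proton table the rats held 67.7% for Hbb, 57.1% for Hba1 and 55.0% for Hba2, and the number range 28.3%, 15.8% and 15.7%. In the WT table the rats' share for Alas2 was lower, at 51.6%, and that for Hbb was 81.7%.

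**Figure D2:**
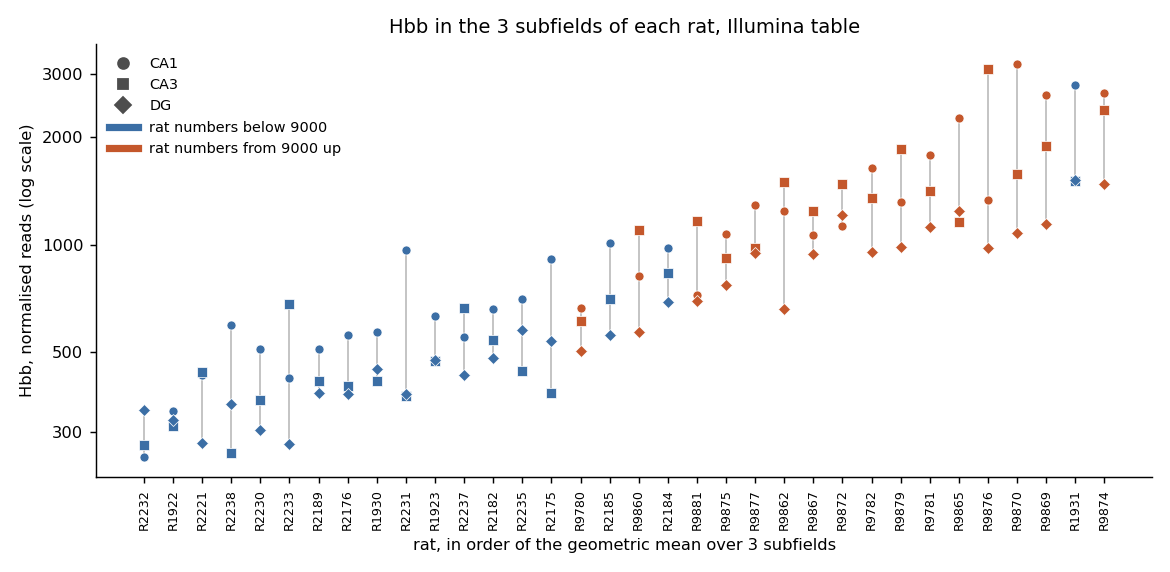
Normalized reads of Hbb (y axis, log scale) in the CA1, CA3 and DG Illumina library of each of 34 rats (x axis, in order of the geometric mean), with the subfield as the marker and the number range as the color. Rats differ more than the 3 points of most rats do, and rats numbered below 9000 fill most of the lower end, with R1931 at the upper end.

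Ranked by the geometric mean of the 3 Hbb values, the lowest rat was R2232 (unimpaired) whose CA1 piece held 254 normalized reads, its CA3 piece 275 and its DG piece 344. The highest was R9874 (impaired) with 2654, 2388 and 1474. The 15 rats at the lower end were numbered below 9000, and the lowest rat of the upper range was R9780 (young) at rank 16. The exception at the other end was R1931, an impaired rat numbered below 9000, at rank 33, whose CA1 piece held 2805, its CA3 piece 1505 and its DG piece 1517.

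Pieces of the same rat were alike in Hbb across the 34 rats. Between CA1 and DG Pearson's r was 0.91 and Spearman's rho 0.93, between CA3 and DG 0.86 and 0.87, and between CA1 and CA3 0.81 and 0.84, each with a two-sided permutation p of 1e-05, the smallest that 100000 resamples can give, and the same after Benjamini-Hochberg adjustment over the 3 pairs. Without the 2 rats farthest from the median of the x axis, r was 0.92, 0.86 and 0.79. Within the 18 rats numbered below 9000, r was 0.88 between CA1 and DG and 0.78 without R1931 and R2232 (adjusted permutation p = 0.0012). In the same rats r was 0.72 between CA1 and CA3 and 0.73 between CA3 and DG, and these fell to 0.32 and 0.29 once R1931 and one further rat were left out, so within that range these r values rest on those rats. Over all 18 of them Spearman's rho was 0.48 for CA1 and CA3 (adjusted permutation p = 0.0465) and 0.57 for CA3 and DG (0.0225). Within the 16 rats from 9000 up, r was 0.80 between CA1 and DG (adjusted permutation p = 0.00075), 0.55 between CA1 and CA3 (0.0256) and 0.62 between CA3 and DG (0.0153). Without the 2 farthest rats of that range the last 2 values became 0.49 (adjusted permutation p = 0.0722) and 0.57 (0.0513). In the Illumina table the relation of CA1 and DG, alone of the 3 pairs, held within both ranges without the 2 farthest rats. The Ion Proton libraries had another order, with r at 0.48 between CA1 and DG, 0.55 between CA1 and CA3 and 0.74 between CA3 and DG (adjusted permutation p = 0.0038, 0.00133 and 3e-05), and the WT libraries had 0.88, 0.76 and 0.85.

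The question of the subfield comparison was whether CA1, CA3 and DG differ whatever the age of the rat, and it was put in 1 limma fit to log2(value + 1) over 14179 genes, with Benjamini-Hochberg adjustment. Globin mRNA was higher in CA1 than in DG, by 1.46 to 1.72 times for the 4 chain genes. Hbb was between 254 and 3209 normalized reads in CA1 (median 940), between 261 and 3094 in CA3 (median 769), and between 277 and 1517 in DG (median 573). The ranges overlapped widely, and the highest DG library lay below the highest of CA1 and of CA3. In the same order of subfields Hba1 had medians of 917, 757 and 636, and Hba2 of 272, 243 and 192. For Hbb-b1 the median was 31.7 in CA3 and 21.4 in DG, and its range was 11.8 to 108 in CA1 and 6.87 to 64.5 in DG. Alas2 was lower throughout, with medians between 13.2 (DG) and 16.3 (CA1) normalized reads.

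**Figure D3:**
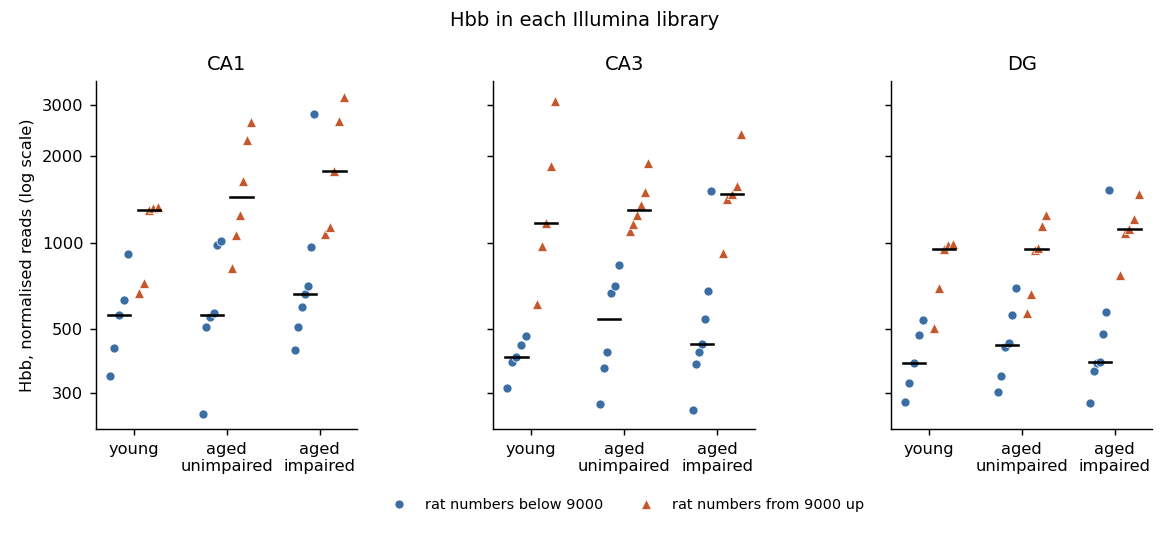
Normalized reads of Hbb (y axis, log scale) in each Illumina library by subfield and suffix (Y young, OG aged unimpaired, OB aged impaired), with circles for rats numbered below 9000, triangles for those from 9000 up, and a bar at the median of each range in each group. In every group the bar of the triangles lies above that of the circles, and 0 to 2 circles a group lie above its lowest triangle, in the impaired groups R1931 alone, which in DG lies above all triangles.

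Between CA1 and DG, 4 of the 5 genes were called higher in CA1, beside 55.6% of all genes called in either direction and 29% called higher. The log2 difference was 0.56 for Hbb (SE 0.21, limma adjusted p = 0.0169), 0.58 for Hba1 (adjusted p = 0.0141), 0.55 for Hba2 (0.0181) and 0.78 for Hbb-b1 (0.000799). For Alas2 it was 0.41 (95% interval -0.01 to 0.83, limma adjusted p = 0.0934). Between CA1 and CA3, 0 of the 5 genes were called, beside 35.4% of all genes, with log2 differences of 0.07 to 0.27 and limma adjusted p values of 0.313 to 0.840. For that pair, 0 members had an unadjusted p under 0.05, and edgeR and DESeq2 also called 0. Between CA3 and DG 1 of the 5 was called, beside 55.6% of all genes, namely Hbb-b1 at 0.51 (limma adjusted p = 0.0294), which was at 0.45 (adjusted p = 0.0557) once the rat R9876 was left out. The other 4 had log2 differences of 0.33 to 0.41. For this pair edgeR called 3 genes and DESeq2 5. The Ion Proton libraries gave 0 calls between CA1 and CA3, 4 between CA1 and DG and 0 between CA3 and DG, beside 15.8%, 30.2% and 30.1% of all genes. The WT libraries gave 0, 5 and 0 calls for the same pairs, beside 33%, 45.9% and 48.7%.

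The 3 pieces of a rat come from the same animal, and with the rat as a block the spread between rats leaves the error. In that fit 3 genes were called higher in CA1 than in CA3 (limma, Hbb 0.23 with adjusted p = 0.0217, Hba1 0.22 with 0.0309, Hbb-b1 0.27 with 0.0140), beside 40.7% of all genes. The other 2, Hba2 and Alas2, were at 0.13 and 0.07. The block called all 5 genes higher in CA1 than in DG, beside 59.3% of all genes, and all 5 higher in CA3 than in DG, beside 59.9%. Rat by rat, Hbb was higher in CA1 than in DG in 32 of 34 animals with a median ratio of 1.43, and Hbb-b1 was so in 34 of 34 with a median ratio of 1.76. Hbb was higher in CA1 than in CA3 in 23 of 34 animals, with a median ratio of 1.22, in 14 of 18 rats numbered below 9000 and 9 of 16 from 9000 up. For Hba1 the same counts were 14 of 18 (median ratio 1.34) and 7 of 16 (0.972). Hbb was higher in CA3 than in DG in 24 of 34 animals, with a median ratio of 1.21, which came from 9 of 18 rats numbered below 9000 and 15 of 16 from 9000 up. In rats from 9000 up alone, limma gave a log2 difference of 0.59 for Hbb between CA3 and DG (adjusted p = 0.0128), and in rats below 9000 alone 0.11 (adjusted p = 0.670). Whether the ranges differ in this step was not tested. Without the 10 libraries nearer to another subfield, 0 genes were called between CA3 and DG.

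Vessel genes moved with this step. Of 12 endothelial genes, 12 were higher in CA1 than in DG, beside 29% of all genes, with a median log2 difference of 0.46, among them Pecam1 (0.57), Cdh5 (0.56) and Vwf (0.54), beside 0.00 over all genes. Of the 8 mural cell genes tested, 8 were higher, with a median of 0.53, as in Tagln (0.76), Abcc9 (0.61) and Kcnj8 (0.60). Leptomeningeal genes were higher in 8 of 9, with a median of 0.77. The median of the 5 members was 0.56. Between CA1 and CA3 3 of the 12 endothelial genes were called, all higher in CA1, and between CA3 and DG 8 of the 12, all higher in CA3, beside 35.4% and 55.6% of all genes called in either direction. The summed level of the 12 endothelial genes ran from 2834 to 8377 normalized reads in CA1 and from 1392 to 5249 in DG, so these ranges also overlapped. The part of vessel content in the hemoglobin step was not tested.

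Of the rest of the erythroid list, 4 of the 7 tested genes were higher and 1 lower in CA1 than in DG. Those higher included Ank1 (0.58), which builds the red cell skeleton and is also a neuronal ankyrin, Tal1 (0.26) and Klf1 (0.24), and the one lower was Sptb (-0.43), a spectrin chain. These counts and the next are to be read beside the 29% of all genes called higher in CA1 and the 55.6% called in either direction. Of the heme pathway that all cells use, 4 of 11 genes were higher and 0 lower, with a median of 0.02. Its members called here were Cpox (0.33), Slc25a37 (0.23), the mitochondrial iron importer, Slc25a38 (0.16) and Ppox (0.12). Of the 7 tested genes of heme breakdown and hemoglobin clearance, 2 were higher and 2 lower. Cd163, the macrophage receptor for hemoglobin bound to haptoglobin, was at 0.61 in CA1 over DG, while Hp, haptoglobin itself, was at -0.35.

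The second question was age. No hemoglobin gene passed the test between aged and young rats in any subfield. In CA1, Hbb was between 342 and 1333 normalized reads in the 10 young rats (median 696), and between 254 and 3209 in the 24 aged rats (median 996). Of the aged rats 16 lay above the young median and 7 above the highest young rat. In CA3 Hbb was between 311 and 3094 in young rats (median 541) and between 261 and 2388 in aged rats (median 875). There the highest library of all was a young one, R9876. In DG Hbb was between 278 and 986 in young rats (median 521) and between 277 and 1517 in aged rats (median 619).

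Aged rats had the higher fitted mean for all 5 genes in each of the 3 subfields over all rats. Without the 7 deeply sequenced rats the sign turned in CA3 for Hbb (-0.20), Hba1 (-0.10), Hbb-b1 (-0.13) and Alas2 (-0.088), and in DG for Hbb (-0.027). Over all rats the log2 differences were 0.40 to 0.57 in CA1, 0.15 to 0.33 in CA3 and 0.23 to 0.61 in DG. For Hbb the difference was 0.44 in CA1 (SE 0.32, limma adjusted p = 0.944), 0.17 in CA3 (95% interval -0.55 to 0.89, adjusted p = 0.999) and 0.23 in DG (-0.30 to 0.77, adjusted p = 0.999). Across all genes the same fits called 0.31% for CA1, 0% for CA3 and 0.292% for DG, where of the 5 members 0 were called. The lowest limma adjusted p values were 0.835 for Hbb-b1 in CA1 (0.57) and 0.839 for Alas2 in DG (0.61, SE 0.27, p = 0.0303), and the latter was the only member with an unadjusted p under 0.05 in any of the 3 subfields. The values of Alas2 in DG ran from 2.29 to 21.7 normalized reads in young rats with a median of 11.8. The medians of the aged groups were 14.4 for unimpaired and 14.5 for impaired rats, and the ranges overlapped. With edgeR and with DESeq2 0 members were called in each subfield, with 1 at an unadjusted p under 0.05 in CA1 by both and 1 in DG by DESeq2.

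The 5 members rise and fall in the same libraries, so 5 genes with the same sign are not 5 separate observations. Once the number range entered as a covariate, the CA1 difference of Hbb was 0.49 (limma p = 0.0515, adjusted p = 0.571). With that covariate 3 of the 5 members in CA1 and 3 in DG had an unadjusted p under 0.05, and 0 passed the adjustment. In the Ion Proton table the CA1 differences were larger for the α chains, 1.07 for Hba1 (p = 0.00701) and 1.23 for Hba2 (p = 0.00383), both with a limma adjusted p of 0.935, beside 0.0197% of genes called. In the Ion Proton DG libraries Hba1 was at 0.73 and Hba2 at 0.75, with limma adjusted p values of 0.588 and 0.528, beside 0.0797% of genes called. In its CA3 libraries the 5 differences lay between 0.072 and 0.35, beside 0.00652% of genes called. Of the members, limma called 0 in each Ion Proton subfield, with 4 at an unadjusted p under 0.05 in CA1, 0 in CA3 and 2 in DG. In that table Hba1 in DG was between 214 and 765 normalized reads in young rats (median 508) and between 278 and 2529 in aged rats (median 813), and 14 of 24 aged rats lay above the highest young rat. The same count was 6 of 24 in the Illumina table.

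No member was called in the test of whether the age difference itself differs between subfields. This fit counted the 3 pieces of a rat as separate libraries, so the spread between rats stayed in its error. The difference of the age differences ran from -0.46 to 0.35 on the log2 scale over the 5 genes and 3 pairs of subfields, the outer values being Alas2 between CA3 and DG and Hbb-b1 between CA1 and CA3. Of all genes 0% were called in these 3 tests by limma, and of the members 0 were called and 0 had an unadjusted p under 0.05. With edgeR and DESeq2 both counts were also 0.

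Memory status was the third question, put to the aged rats alone. Hbb was between 423 and 3209 normalized reads in CA1 of impaired rats (median 1019) and between 254 and 2619 in unimpaired rats (median 996). In CA3 the medians were 799 in impaired and 965 in unimpaired rats, and in DG 674 and 616. The ranges covered each other in each subfield. The log2 difference of Hbb was 0.23 in CA1 (95% interval -0.48 to 0.94), -0.04 in CA3 (-0.82 to 0.75) and 0.12 in DG (-0.47 to 0.70). Of the 5 members 0 were called in each subfield and 0 had an unadjusted p under 0.05, and 0% of all genes were called by limma, although an unadjusted p under 0.05 was had by 858 genes for CA1, 250 for CA3 and 505 for DG. With edgeR and DESeq2 0 members were called and 0 had an unadjusted p under 0.05. Among the Ion Proton libraries 0 members were called and 0% of all genes, and in DG all 5 were higher in impaired rats (0.28 to 0.67), with Alas2 at an unadjusted p under 0.05 (0.67, p = 0.0217 by limma, which did not pass the adjustment). The sign changed with the gene and the setting in CA3, where Hba1 was at 0.17 and Hbb-b1 at -0.12. In these aged rats R1931, the rat with high hemoglobin and a low number, was an impaired one.

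**Figure D4:**
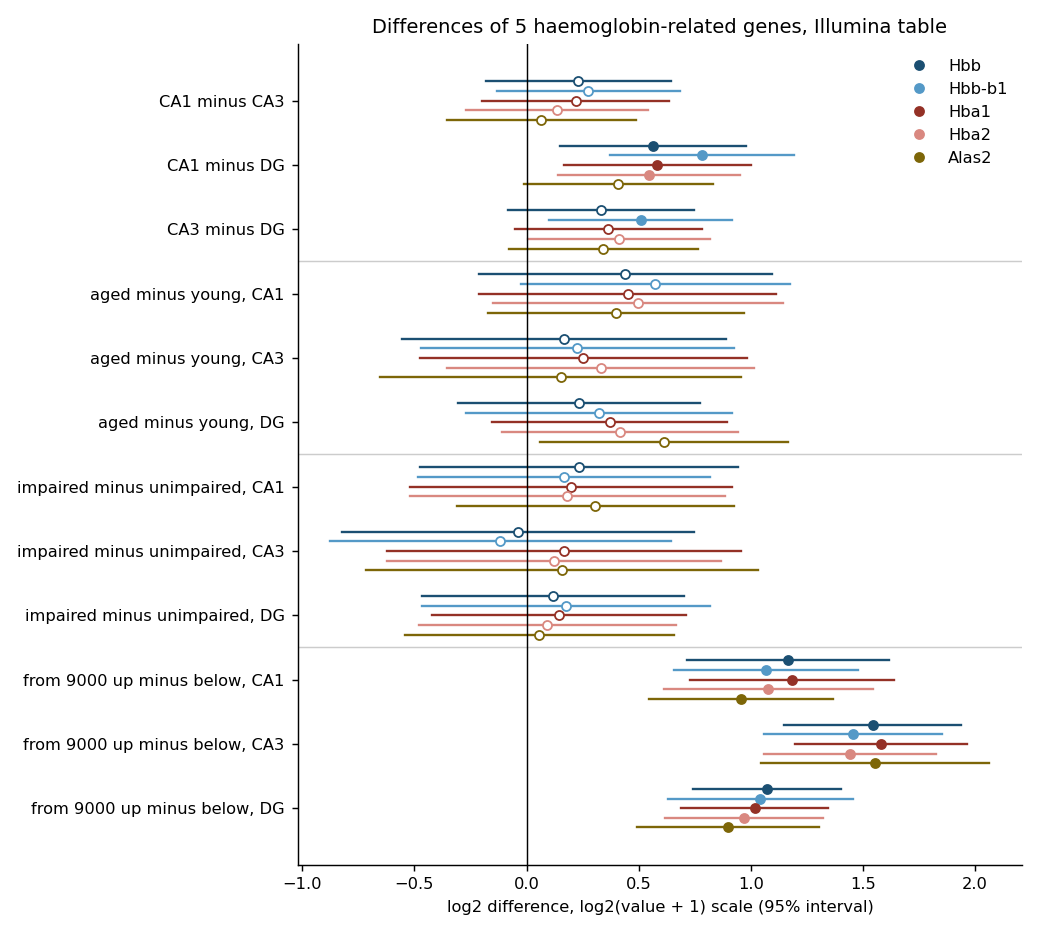
Log2 difference with its 95% interval (x axis) of Hbb, Hba1, Hba2, Hbb-b1 and Alas2 (colours) in the Illumina table for the subfield, age, memory and number range comparisons (rows), from the limma fits, with filled points for an adjusted p under 0.05. The intervals of the number range lie above 0 for every gene and subfield, those of age include 0 but for Alas2 in DG, and those of memory all include 0.

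In the Illumina table the rat number range gave larger differences of the hemoglobin genes than subfield, age or memory did. That order did not hold throughout the Ion Proton table, where Hba1 and Hba2 in CA1 were at 0.81 and 0.86 by the range and at 1.07 and 1.23 by age, and Hba1 in DG was at 0.48 by the range, 0.73 by age and 0.78 between CA1 and DG. All 5 genes were higher in rats numbered from 9000 up than in those below, in each of the 3 subfields, in a limma fit with the suffix as a covariate. In CA1 Hbb was between 254 and 2805 normalized reads in the 18 rats below 9000 (median 584), and between 667 and 3209 in the 16 rats from 9000 up (median 1306). In CA3 the corresponding values were 261 to 1505 (median 428) and 610 to 3094 (median 1381). In DG they were 277 to 1517 (median 409) and 505 to 1474 (median 967). In each subfield 16 of the 16 rats from 9000 up lay above the median of the others, and 1 of the 18 rats below 9000 lay above the median of the upper range. Below the lowest rat of the upper range were 12 of the 18 in CA1, and 13 in each of CA3 and DG.

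The difference of Hbb was 2.24 times in CA1 (SE 0.22 on the log2 scale, limma adjusted p = 0.000125), 2.91 times in CA3 (log2 1.54, SE 0.19, 7.87e-08) and 2.10 times in DG (log2 1.07, SE 0.16, 6.41e-06). Called in all were 35.1% of the genes in CA1, 51.8% in CA3 and 30.6% in DG, of which 17.3%, 25.4% and 15.3% were higher in the upper range. The 5 of 5 members called are to be read beside these shares. By size, Hbb exceeded the absolute difference of 99.4% of the genes tested in CA1, 98.8% in CA3 and 99.2% in DG.

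The α chains went along with it, Hba1 at log2 differences of 1.18, 1.58 and 1.02 in the same order of subfields, and Hba2 at 1.08, 1.44 and 0.97. Hbb-b1 was at 1.07, 1.46 and 1.04. Alas2, which makes no chain but the heme precursor, was at 0.96 (limma adjusted p = 0.00041), 1.56 (4.79e-06) and 0.90 (0.000854). In CA1 its median was 11.8 below and 27.1 above, for CA3 10.3 and 27.3, and for DG 9.83 and 16.9. Alas2 values rest on fewer reads than those of the chains. The Hbb-bs row LOC689064 was at 1.05, 1.37 and 1.17, each called. The α share of globin reads was 56.6% ± 2.63 (SD, 54 libraries of 18 rats) below 9000 and 56.1% ± 3.93 (SD, 48 libraries of 16 rats) from 9000 up. In the Ion Proton table it was 52.6% ± 7.48 and 48.6% ± 8.40, and in the WT libraries 56.4% ± 4.90 and 54.4% ± 4.81. The difference of these shares was not tested.

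The part of the heme pathway that all cells use was called in both directions. Of its 11 genes, 2 were called higher and 3 lower in CA1, 1 higher and 4 lower in CA3, and 3 higher and 0 lower in DG, beside 35.1%, 51.8% and 30.6% of all genes called in either direction. Alas1, the enzyme of other cells at the same step as Alas2, was at -0.38 in CA3 (limma adjusted p = 2.24e-09), where Alas2 was at 1.56. Uros was at -0.22 in CA1 and -0.26 in CA3, and Fech, which inserts the iron, at -0.13 in CA1. Higher was Cpox in CA1 (0.20) and DG (0.33), and it was lower in CA3 (-0.22).

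Among genes of heme breakdown and hemoglobin clearance, Cd163 was called higher in the upper range in all 3 subfields, at 0.70 in CA1 (limma adjusted p = 0.0161), 1.72 in CA3 (9.29e-06) and 1.13 in DG (0.000597). Hmox1, the inducible heme oxygenase, was higher in CA1 (0.22) and DG (0.29), and Hp in CA3 (0.66). Lower were Blvra in CA1 (-0.21) and CA3 (-0.32) and Blvrb in CA1 (-0.24) and DG (-0.13), the biliverdin reductases. In counts, 2 of 7 rose and 2 fell in CA1, 3 rose and 2 fell in CA3, and 2 rose and 1 fell in DG, beside the same shares of all genes called. Of the other globins, Ngb was called higher and Cygb lower in CA1, Ngb at 0.39 and Cygb at -0.17 in CA1, with 0 called in CA3 and in DG.

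Blood markers outside the members were few in reads and were read by their levels. Slc4a1 had a median of 1.74 normalized reads (0 to 16.9) in the 54 libraries below 9000, 11 of them at 0, and of 4.38 (0.995 to 14.3) in the 48 libraries from 9000 up, 0 of them at 0. Ahsp was at 0 in 27 of 54 libraries below and in 13 of 48 above. Hemgn, a nuclear protein of red cell precursors, was at 0 in 25 and 13. In CA1 alone the medians were not higher in the upper range, at 0.985 below and 0.831 above for Ahsp. For Hemgn they were 0.938 and 0.779 there. The neutrophil genes S100a8 and S100a9 had no higher median in the upper range, with medians of 1.48 and 3.30 below and 1.17 and 2.81 above, and Pf4 of platelets had medians of 4.43 and 4.97. The platelet gene Ppbp was at 0 in 50 of 54 libraries below and 42 of 48 above. Epb42, a red cell skeleton protein, had medians of 6.82 and 7.21. Those are Illumina values, and not every one went the same way in the other tables. Slc4a1 had medians of 4.32 and 7.16 in the Ion Proton table and of 2.78 and 6.19 in the WT table, where it was at 0 in 3 of 54 libraries below and 6 of 48 above. Ahsp medians in the WT table were 0.871 and 0.880, and Epb42 medians in the Ion Proton table were 6.40 and 3.87. These 8 blood genes were picked from the lists after their values were seen. Of the erythroid genes tested, those called higher in the upper range included Gypc in CA1 (0.80), Ank1 (0.50) and Tal1 (0.32) in CA3, and Bpgm in DG (0.13).

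Other cell types moved with the number range in part, and the counts of calls in their lists are to be read beside the 17.3%, 25.4% and 15.3% of all genes called higher in CA1, CA3 and DG. Endothelial genes were called higher in 1 of 12 in CA1 (median of the list 0.11), 11 of 12 in CA3 (0.51) and 0 of 12 in DG (0.10), so that the hemoglobin difference in DG stood beside an endothelial median of 0.10. The sum of the 12 genes ran from 2299 to 3977 normalized reads below and from 1392 to 5249 above in DG. Of the 8 mural cell genes, the calls of a higher level numbered 1 in CA1, 5 for CA3 and 2 for DG. Of the white blood cell genes 3 passed the filter in CA1 and 3 were called higher there (Cd3e 1.59, Ncf1 0.51, Ptprc 0.46), and in DG 2 of 3 were, and in CA3 0 of 2. Ptprc and Ncf1 are also microglial genes. Choroid plexus genes were called higher in 7 of 8 in CA1 (median 2.29) and 4 of 6 in DG (median 1.57), and 1 higher and 1 lower of 7 in CA3. Of 9 leptomeningeal genes, 0 were higher and 1 lower in CA1, 6 higher and 1 lower in CA3, and 3 higher and 0 lower in DG. In CA3 the dentate granule list was called higher in 5 of 6, the CA1 pyramidal list higher in 3 of 3 (median 0.95) and the CA3 list lower in 3 of 5. Without the 10 libraries nearer to another subfield Hbb was at 1.64 in CA3 and 1.01 in DG, and all 5 genes were called in each of the 3 subfields. The part of dissection, cell content, site or animal source in the hemoglobin difference was not tested.

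The Ion Proton libraries come from the same pieces by another chemistry. Their Hbb ran from 302 to 16107 normalized reads with a median of 1381, and the members took 0.0416% of reads on average. Hbb of the same pieces in the 2 tables had an r of 0.59 in CA1, 0.90 in CA3 and 0.83 in DG over 34 rats, with rho at 0.62, 0.92 and 0.84 (two-sided permutation p adjusted over 6 relations at most 0.00027). Without the 2 rats farthest from the median, r was 0.71, 0.88 and 0.81. With the WT table r was 0.97, 0.95 and 0.96. Here too all 5 members had a higher mean in the upper number range, and limma called 2 of 5 in CA1 (Alas2, Hbb-b1), 5 of 5 in CA3 and 3 of 5 in DG (Alas2, Hbb-b1, Hbb), beside 8.03%, 19.5% and 20.5% of all genes. The WT libraries gave 4, 5 and 4 calls, beside 19.5%, 43.4% and 27.6%. The member left out was Alas2 in CA1 (0.24, limma adjusted p = 0.383) and in DG, where its sign turned (-0.18, adjusted p = 0.408).

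**Figure D5:**
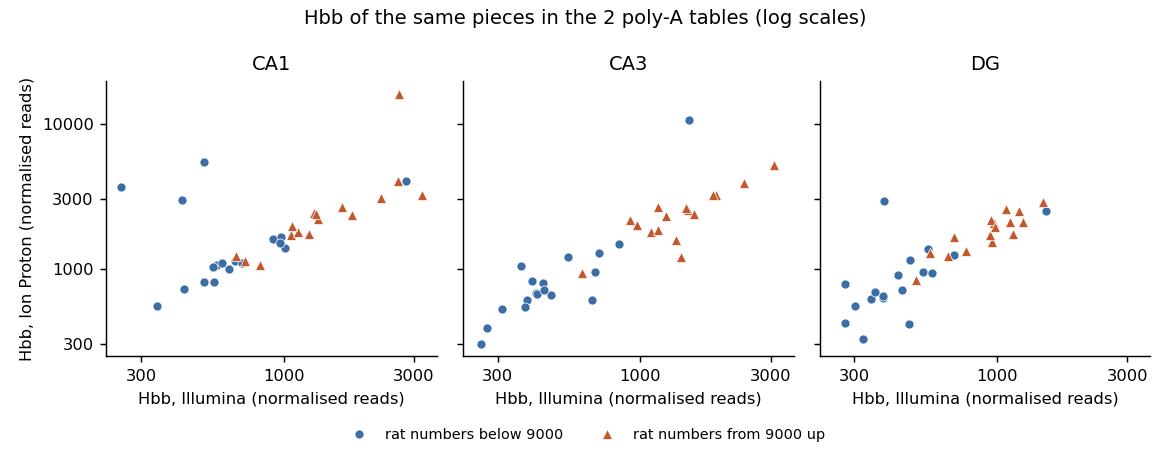
Normalized reads of Hbb in the Ion Proton table (y axis, log scale) against the Illumina table (x axis, log scale) for the 34 rats in CA1, CA3 and DG, by rat number range. Points rise together in CA3 and DG, and in CA1 3 rats below 9000 with Illumina values of 254 to 510 lie at 2969 to 5444 on the Ion Proton axis.

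The weaker relation in CA1 came with a few pieces. The CA1 piece of R2230 (unimpaired) had 510 normalized reads of Hbb in the Illumina table and 5444 in the Ion Proton table, that of R2232 254 and 3671, and that of R2233 423 and 2969. Their WT values were 405, 245 and 364. In the Ion Proton table the R2230 piece also had the highest Slc4a1 (177), Ahsp (28.2), Epb42 (26.8) and Bpgm (1726) of that table. These were named after their values were seen, and other genes of the erythroid list peaked elsewhere. Rhag peaked in the CA3 piece of R2231 and Gata1 in the DG piece of R2189. Hemgn, Klf1 and Trim58 peaked in the CA1 pieces of R9870, R2232 and R2233. The highest Ion Proton library was the CA1 piece of R9874. It had 16107 normalized reads of Hbb, 9724 of Hba1, 7129 of Hba2 and 610 of Hbb-b1, where the other 33 CA1 libraries had medians of 1659, 1139, 736 and 79.9. Its Alas2 was at 54.3 beside a median of 38.8, its Slc4a1 at 27.7 beside 7.17, its Hemgn at 8.51 beside 1.02 and its Ahsp at 5.32 beside 1.15. Its Rhd (40.4), Nfe2 (38.3) and Kel (23.4) lay above the highest of the other 33 (11.6, 6.62 and 4.79), while its Gypc, Epb42, Rhag, Trim58 and Gata1 were at 0. In the CA3 piece of R1931 Hbb was at 10615 and Alas2 at 134, the highest Alas2 of that table. Its Slc4a1 (60.6) and Ahsp (13.0) exceeded those of the other 33 CA3 libraries. Its Gypc, Epb42, Klf1, Tal1 and Rhd were at 0, where the others had medians of 11.1, 3.92, 17.7, 34.4 and 4.59. Its Sptb was at 1013 beside a median of 2436.

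The division of α reads between the 2 α rows differed by table. Hba1 took 76.4% of the Hba1 and Hba2 reads on average over the Illumina libraries (69.9 to 83.2%), 60.3% ± 3.86 (SD) in the Ion Proton table and 67.2% ± 3.04 in the WT table. The α share of globin reads was 50.7% ± 8.14 in the Ion Proton table, a wider spread than the 3.30 of the Illumina table. The row LOC287167, which RefSeq names Hba-a3, averaged 0.110 normalized reads in the Illumina table and 13.2 in the Ion Proton table, and LOC689064 35.9 and 184. Levels across tables were normalized separately and are set side by side only. The copies share sequence, and the cause of the different shares was not tested.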

How the data were processed

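RNA of CA1, CA3 and DG of 34 rats was read on 2 platforms, and a further table (WT) was deposited whose library type and processing were not given in the sources used here. The deposited values are signal: per the labels and the submitters' processing notes, the authors trimmed the Illumina reads (CutAdapt 1.8.3), aligned them to rn5 (STAR 2.5), counted them by gene (featureCounts 1.4.4) and divided the counts by DESeq2 size factors. The Ion Proton reads were aligned with TopHat2 and Bowtie2. The labels name a stranded kit and the methods an unstranded one, so the use of strand is unsure. Whole reads were recovered for 100% of the values (tolerance 0.1). The 48 rows with no symbol in each table stayed in the tests where their mean passed the filter, and none was read by name.

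Groups were taken from the suffix in the titles, and rows by gene symbol. The members and the 14 gene lists were chosen with earlier results of these data known. Because the values were not counts as deposited, the main test was limma 3.58.1 in R 4.3.3, run on log2(value + 1) for genes with a mean of at least 10 over the libraries of the fit, with Benjamini-Hochberg adjustment at 0.05. edgeR 4.0.16 and DESeq2 1.42.0 on the recovered reads were alternatives. Subfields were compared without a block, and with the rat as a block as an alternative, since 3 libraries come from the same animal. In pairs of libraries from the same rat the correlation of the deviations had a median of 0.10 and exceeded 0.1 in 49 pairs, beside a median of -0.00 between rats. Fits were tested on simulated data: of genes changed by 1 on the log2 scale, 100% were recovered between CA1 and CA3 (14180 genes), 98.5% for age in CA1 (14177 genes) and 97.5% for the number range in CA1 (14189 genes). The simulated libraries were drawn independently, with no spread between rats or number ranges. These shares therefore do not give the power for the hemoglobin genes, whose spread lay largely between rats. Correlations used two-sided permutation tests (scipy 1.17.1, 100000 resamples). P-values of the fits within 1 subfield and of the correlations measure the spread between these rats. The subfield fits without a block, and the fit of age differences between subfields, counted the 3 libraries of a rat as separate. With the rat as a block, p-values measure the spread within rats. Genes named beyond the members were those called with the largest differences in each list, up to 4 a list and comparison, and the 10 most like Hba1. Red cell, platelet and neutrophil genes with too few reads for a test were named for their levels after these were seen. The values of 1 gene of the lists are not reported here.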

Additional observations from a re-analysis of the deposited data

Results flagged for a closer look

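Of 30 groups of 10 young libraries in the Illumina and Ion Proton tables, 1 held a library far from the others. Hbb-b1 in the CA3 piece of the young rat R9876 was at 133 normalized reads in the Illumina table, the nearest of the other young CA3 libraries was at 59.2, and the gap made up 0.600 of the whole range. Chance alone puts about 1 in 20 groups past this limit. The same piece had 3094 normalized reads of Hbb, 2937 of Hba1, 827 of Hba2 and 47.4 of Alas2 in the Illumina table, and 111 of Hbb-b1 in the WT table and 249.9 in the Ion Proton table. It also held the highest values of the platelet genes Pf4 (37.7) and Clec1b (12.6) and of Nfe2 (9.77) among the Illumina libraries. These genes were named after their values were seen. The platelet genes Gp1ba, Gp1bb, Gp9, Itga2b, Ppbp and Treml1 peaked in other libraries, as did Slc4a1, Ahsp and Hemgn. The part of blood in the piece was not tested.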

How the results depend on the processing

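The calls of all 5 genes higher in rats numbered from 9000 up were kept by edgeR and DESeq2 in each subfield. The count was 4 in CA1 and in DG of the WT table, and 2 in CA1 and 3 in DG of the Ion Proton table, and, in the latter without the CA1 library of R9874 and the CA3 library of R1931 (chosen after seeing the data), 1 in CA1 and 3 in DG. In the WT table Alas2 in DG turned to -0.18. The count between CA3 and DG was the least stable. It was 1 and became 0 with quantile normalization, in the Ion Proton table with and without those 2 libraries, in the WT table, in rats below 9000 and without the 10 libraries nearer to another subfield, 4 with the number range as a covariate, 5 in rats from 9000 up, 3 with edgeR and 5 with DESeq2, and leaving out each rat in turn gave 0 to 1. With the replicate block on the rat it was 5, and the count between CA1 and CA3 rose from 0 to 3. Other values called in neither fit changed sign as follows, on the log2 scale.

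Between CA1 and CA3, Alas2 was -0.26 and Hba2 -0.062 in rats from 9000 up, and Alas2 was -0.016 without the 7 deeply sequenced rats, -0.043 with edgeR and -0.085 with DESeq2. For impaired minus unimpaired rats in CA1, the Ion Proton table gave -0.049 for Hba1, -0.049 for Hba2, -0.25 for Hbb-b1 and -0.26 for Alas2, and without the 2 libraries -0.21 for Hbb, -0.30 for Hba1, -0.31 for Hba2, -0.50 for Hbb-b1 and -0.31 for Alas2. Without the deeply sequenced rats these were -0.021 for Hba1, -0.026 for Hba2 and -0.027 for Hbb-b1. In CA3 Hbb was 0.035 in the Ion Proton table, 0.12 in the WT table, 0.091 with the covariate, 0.041 below 9000, 0.14 from 9000 up, 0.069 with edgeR, 0.065 with DESeq2 and -0.18 to 0.11 without 1 rat. Hbb-b1 was 0.32 in the WT table, 0.0052 with the covariate and -0.26 to 0.010 without 1 rat. Without libraries nearer to another subfield Hba1 was -0.073, Hba2 -0.12 and Alas2 -0.20, without the deeply sequenced rats -0.0021, -0.049 and -0.069, and in the Ion Proton table without the 2 libraries -0.076, -0.085 and -0.19. Alas2 was -0.032 in the WT table, -0.025 below 9000 and -0.084 to 0.34 without 1 rat, and Hba2 -0.0081 to 0.23 without 1 rat. In DG the deeply sequenced rats, once left out, gave -0.055 for Hbb, -0.063 for Hba1, -0.13 for Hba2, -0.031 for Hbb-b1 and -0.092 for Alas2. Hbb-b1 was -0.030 in the WT table, and without R1931 (chosen after seeing the data) Hba2 was -0.017 and Alas2 -0.057. Without 1 rat Hba2 was -0.018 to 0.19 and Alas2 -0.057 to 0.15.

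For aged minus young rats in CA3, values without the deeply sequenced rats were -0.20 for Hbb, -0.10 for Hba1, -0.13 for Hbb-b1 and -0.088 for Alas2, and Hbb in DG was -0.027. Alas2 in CA3 was -0.046 below 9000 and -0.027 in the Ion Proton table without the 2 libraries. The causes were not tested. Of single-gene values, 59 changed sign, 25 passed the threshold newly, 22 lost it and 884 kept both. Alas2 and Hbb-b1 rest on fewer reads than the other members, and the red cell genes at or near 0 in most libraries were not tested at this depth.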

Other observations

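Platelet and pituitary genes were read for completeness. Of the platelet list 3 rows passed the filter, of which 2 carry the symbol Gp1bb, and all 3 were lower in CA1 than in DG, with a median log2 difference of -0.44, beside 55.6% of all genes called in either direction. Of the pituitary list 1 gene, Pomc, passed the filter in the subfield fit, and 0 were called between subfields or between number ranges. The choroid plexus list was called higher in 5 of 7 genes in CA1 over DG, beside 29% of all genes. In the CA1 piece of R1931 the neutrophil genes S100a8 (16.2 normalized reads) and S100a9 (33.5), with Slc4a1 (16.9) and Bpgm (1432), reached their highest values of the Illumina libraries. They were named after their values were seen, and Ahsp, Hemgn, Mpo and Pf4 peaked in other libraries. The genes closest to Hba1 beyond the globin genes and Alas2 included Dbp, a transcription factor of the circadian clock, with a smaller r of 0.62, which lies outside the 10 named above and was singled out after its value was seen.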
